A study of Bos taurus with 81 samples.

Results

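H3K9me3, the repressive trimethyl mark on lysine 9 of histone H3, was compared between the 8-cell embryo and the morula of cattle. The comparison rests on the 2 peak lists of 8-cell embryos (8C) and the 2 peak lists of morulae (MO) made with the H3K9me3 antibody, chosen by their labelled antibody and stage, which are 4 of the 81 lists in the series. The study profiled histone marks by CUT&Tag, in which an antibody directs a transposase to the marked chromatin, from the oocyte to the blastocyst. All embryos were produced in vitro: oocytes from slaughterhouse ovaries were matured, inseminated with thawed semen and cultured. The 8C embryos were taken 56 h and the morulae 122 h after insemination, both from the untreated culture. Each library pooled 1000 to 1500 blastomeres, so a domain present in part of the cells cannot be told apart from a weak domain in all of them. Neither breed nor embryo sex is given in the sources used here. The labels do not say that libraries of a group came from separate cultures, so p-values measure the spread between these libraries only. For comparison, H3K9me3 lists of germinal vesicle oocytes (GV, about 500 per library), 2-cell (2C, 32 h) and 4-cell embryos (4C, 44 h), 8-cell embryos grown in 50 µg/ml α-amanitin (8A), whole blastocysts (BL, 172 h), inner cell mass (ICM) and trophectoderm (TE) were read at the same places. The 8A group differs from 8C by this inhibitor of RNA polymerase II. The ICM was freed by immunosurgery and the TE was cut away with a blade.

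H3K9me3 is laid down by SETDB1 and the SUV39H enzymes and is bound by HP1 proteins, which compact chromatin. It is known for silencing retrotransposons, satellite repeats and lineage genes, and in mammalian embryos it is rebuilt while the embryo takes over control from the maternal supply. H3K27me3 is the repressive mark of Polycomb repressive complex PRC2, H3K27ac marks active enhancers and promoters, and H3K4me3 marks promoters and, in oocytes and early embryos, also broad domains. The annotation at hand was of another genome build, so regions are given by position on ARS-UCD1.2 and no gene is named.

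The morula lists held more, shorter and in sum less extensive H3K9me3 domains than the 8C lists. On the autosomes 1 to 29, the 8C libraries held 14076 and 11935 peaks and the MO libraries 18799 and 17808. These peaks covered 168 Mb and 167 Mb in 8C, and 114 Mb and 143 Mb in MO. Both MO libraries lay below both 8C libraries, and the MO pair was further apart than the 8C pair. The mean was 168 Mb ± 0.517 (SD, n = 2) in 8C and 129 Mb ± 20.8 (SD, n = 2) in MO, with a log2 ratio of -0.39. Each log2 ratio, here and below, is the mean log2 value of MO minus that of 8C. Without MO replicate 1 the log2 ratio was -0.23, and without MO replicate 2 it was -0.56. An exact two-sided permutation test gave p = 0.333, which is the smallest p that 2 libraries against 2 can give, here and in every comparison of 8C with MO below.

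The width of single peaks differed in the same order. The median peak was 8600 bp and 10400 bp wide in the 8C libraries and 4600 bp and 6000 bp in the MO libraries. The means were 9500 bp ± 1273 and 5300 bp ± 990 (SD, n = 2 each), a log2 ratio of -0.85 with p = 0.333 by the exact permutation test. The groups did not overlap, and the gap between them was larger than the spread within either pair. Short peaks made up the surplus in the morula: peaks under 5 kb numbered 2167 and 938 in 8C against 10353 and 6490 in MO. Peaks of 50 kb or more numbered 211 and 236 in 8C against 34 and 95 in MO. Peaks of at least 5 kb held 95.3% and 97.9% of the covered length in 8C and 71.9% and 84.7% in MO. The difference in means was 96.6% ± 1.86 against 78.3% ± 9.06 (SD, n = 2 each, exact permutation p = 0.333), which is -18.3 percentage points. That difference was -11.9 without MO replicate 1, -6.48 in the higher-scoring 50% of peaks and -31.0 with a limit of 10 kb. Very long domains were present at both stages, the longest peak of each library being 192.6 kb and 217 kb in 8C and 177.6 kb and 198.4 kb in MO. The stages thus differed in the number of long peaks and little in the width that the longest reached.

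**Figure D1:**
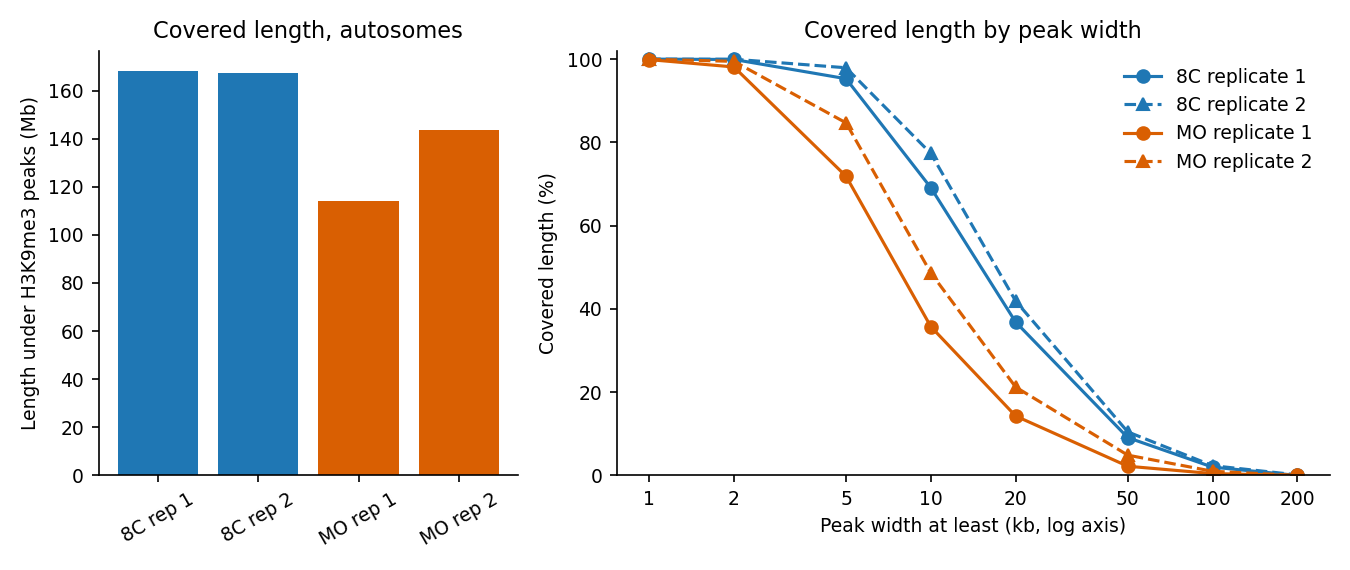
Left, autosomal length under H3K9me3 peaks in Mb for each of the 4 libraries (bars start at 0). Right, the percentage of that length held by peaks of at least the width on the x axis (kb, log axis), 1 line per library. At 10 kb the 8C lines stand at 69.1% and 77.3% and the MO lines at 35.7% and 48.6%.

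Sequencing depth is unknown for these lists. The lowest score per 200 bp of peak, read as the 1st percentile of each list, was 2.28 and 2.48 in 8C and 2.13 and 2.48 in MO. MO replicate 1, the library with the shortest covered length, had the lowest of these values, and the part of depth in the lengths was not tested. When all 4 lists were trimmed to one covered length by score, the log2 ratio of median width was -1.41. That length was the one of MO replicate 1, so the 8C lists were cut the most. Peaks of low score were dropped first, which can remove short peaks and raise the 8C median, so this ratio is no test of depth. Trimming by score per 200 bp, an alternative chosen after seeing the data, gave -1.05.

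The positions of the domains differed far more than their total length. The Jaccard index, the bases shared by 2 lists divided by the bases in either, was 0.673 for the 8C pair and 0.630 for the MO pair. The 4 pairs of an 8C and an MO list gave 0.140, 0.164, 0.132 and 0.154. Each stage thus had a list of its own that its replicate shared, and the stages shared little of it. The within-stage mean of 0.651 exceeded the between-stage mean of 0.147 by 0.504 (exact one-sided permutation p = 0.333, the smallest possible).

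To see where domains were kept, lost or gained, the autosomes were cut into 497623 bins of 5 kb, and a bin was called marked in a library where peaks covered at least 50% of it. A kept bin was marked in all 4 libraries, a lost bin in both 8C and no MO library, and a gained bin in both MO and no 8C library. There were 5893 kept bins (29.5 Mb), which are 1.18% of autosomal bins. Lost bins numbered 20039 (100.2 Mb), or 4.03% of autosomal bins. Gained bins numbered 12411 (62.0 Mb), or 2.49% of autosomal bins. By this rule more bins were lost than gained, at 1.61 lost bins for each gained bin. Of the 28068 bins marked in both 8C libraries, 71.4% were lost, 21.0% were kept and 7.61% were marked in 1 MO library. Of the 19774 bins marked in both MO libraries, 62.8% were gained and 29.8% were kept. These classes were defined by the same 4 libraries, so their sizes are a description and carry no test. Without MO replicate 1 the gained share was 3.81% of autosomal bins and the lost share 4.08%. Where any covered base marked a bin, 4.69% were gained and 5.05% lost. Where 90% cover was required, 0.922% were gained and 2.64% lost. In lists trimmed to one covered length by score, 2.41% were gained and 2.70% lost. Losses exceeded gains under each of these settings, but the size of the excess depended on the setting.

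Most lost and gained bins had no peak at the other stage and did not lie just under the 50% line. Cover counts called peaks only, and the calling cutoff is unknown. A bin without cover thus cannot be told apart from one with signal just below that cutoff. In the lost bins, peaks covered 90.9% and 92.5% of bases in the 8C libraries and 0.798% and 1.51% in the MO libraries. In the gained bins they covered 1.34% and 0.961% in 8C and 80.6% and 86.4% in MO. Of the lost bins, 18747 (93.6%) had no peak base in either MO library, and 11668 gained bins (94.0%) had none in either 8C library. The bins nearest the line were a minority of each library. Bins with 40% to under 50% cover numbered 2771 and 2397 in 8C and 4370 and 4039 in MO. Bins with 50% to under 60% cover numbered 2081 and 1712 in 8C and 2836 and 2718 in MO, which are 6.02%, 5.00%, 12.6% and 9.41% of the bins marked in each library.

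Losses came in longer stretches than gains. Lost bins formed 7243 uninterrupted runs with a mean of 13.8 kb and a maximum of 175 kb, and 39.3% of these runs were a single bin. Gained bins formed 8493 runs with a mean of 7.31 kb and a maximum of 50 kb, and 70.9% of them were a single bin. Kept bins formed 2487 runs with a mean of 11.8 kb and a maximum of 280 kb. Runs of 25 kb or more held 43.1% of the lost bins, 36.5% of the kept bins and 7.24% of the gained bins. The width of the peak that lay over a bin gave another order, with kept bins under the widest peaks in every library. Its median width in 8C was 19.8 kb and 20.6 kb over kept bins and 16 kb and 18.2 kb over lost bins. In MO it was 14 kb and 21.6 kb over kept bins and 6.8 kb and 8.8 kb over gained bins.

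Most 8C domains disappeared whole, and among the largest ones fewer did so. Neighbouring bins marked in both 8C libraries formed 8430 domains, of which 5670 (67.3%) consisted of lost bins only and 1056 (12.5%) of kept bins only. A further 770 (9.13%) held both kept and lost bins. Among the 2802 domains of a single bin, 75.2% were lost whole, against 68.3% of the 3908 domains of 2 to 4 bins and 56.7% of the 1270 domains of 5 to 9 bins. Of the 450 domains of 50 kb or more, 175 (38.9%) were lost whole, 24 were kept whole and 195 (43.3%) held both kept and lost bins. Size and survival of a part therefore went together, although a long domain has more bins and so more chances to hold one of each class. In the morula, the same rule gave 10593 domains, of which 7654 (72.3%) were gained whole. Of the 129 morula domains of 50 kb or more, 3 were gained whole and 82 (63.6%) held both kept and gained bins, and 71.9% of the bins in these long domains were kept.

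Gained bins were nearer to 8C domains than the rest of the unmarked genome, but most stood apart from them. The median distance from a gained bin to the nearest bin marked in any 8C library was 140 kb, against 300 kb over all 456857 bins unmarked in 8C. Of the gained bins, 9.21% touched such a bin, against 4.11% of all unmarked bins, and 55.1% lay more than 100 kb away, against 69.8%. Gained bins beside an 8C domain were thus a minority of the gains. For lost bins, the median distance to the nearest bin marked in any MO library was 60 kb, and 9.95% touched one, against 80 kb and 5.83% over all bins unmarked in MO.

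The autosomes did not lose the mark evenly. The covered share was lower in both MO than in both 8C libraries on 18 of 29 autosomes (62.1%) and higher in both on 5 (17.2%), which are chromosomes 1, 6, 9, 12 and 20, and the groups overlapped on 6. Chromosome 19 was covered for 13.3% and 14.3% in 8C and 3.95% and 5.67% in MO, a log2 ratio of -1.54. Chromosome 22 had 10.7% and 11% in 8C and 4.16% and 5.44% in MO (log2 ratio -1.19). Chromosome 25 had 14.4% and 14.9% in 8C and 5.86% and 8.26% in MO (log2 ratio -1.07). These 3 chromosomes had the most negative log2 ratios, and all 3 had a high 8C level. At the other end, chromosome 9 was covered for 3.29% and 2.97% in 8C and 4.10% and 4.97% in MO (log2 ratio 0.53). Chromosome 6 had 4.16% and 3.86% in 8C and 5.15% and 6.01% in MO (log2 ratio 0.47). Chromosome 12 had 3.82% and 3.81% in 8C and 4.39% and 5.19% in MO (log2 ratio 0.32). On all 3 the 8C level was low.

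The mark was therefore spread more evenly over the autosomes in the morula than at the 8-cell stage. The mean covered share per autosome ranged from 3.13% to 14.6% in 8C, a 4.67-fold range, and from 3.82% to 7.68% in MO, a 2.01-fold range. Lost bins varied more between autosomes than gained bins: they made up 1.62% to 10.5% of the bins of an autosome, and gained bins made up 1.82% to 3.60%. The share of 8C domain bins that was lost also varied, from 50.6% on chromosome 6 to 85.6% on chromosome 7. Over the 29 autosomes the percentage of lost bins and the percentage covered by H3K27ac in the morula had Pearson's r = 0.898 and Spearman's rho = 0.860. The percentage of lost bins also had r = 0.982 with the 8C level of H3K9me3, and that 8C level had r = 0.70 with H3K27ac of the 8C libraries. Lost percentage and the earlier level of the mark are thus nearly one measure over autosomes. Autosome length and the log2 ratio had r = 0.48 and rho = 0.45, and lost and gained percentages had r = 0.28 and rho = 0.015. These correlations describe 29 chromosomes of the same few libraries, which differ in gene density and base composition, and carry no p.

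**Figure D2:**
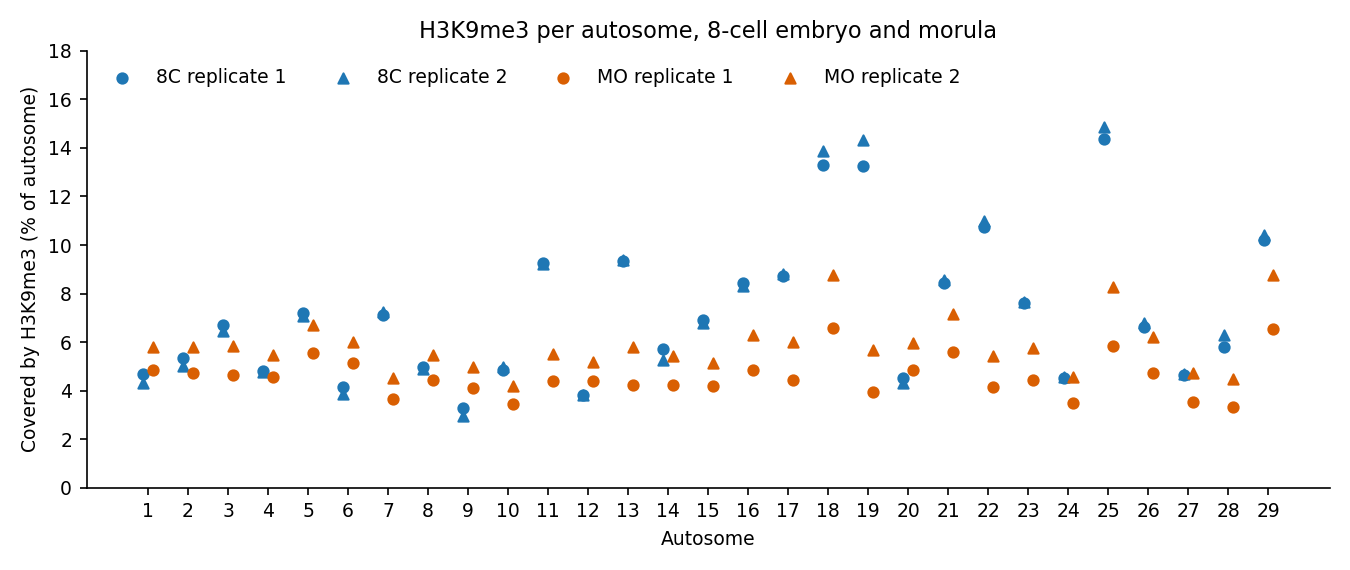
Percentage of each autosome covered by H3K9me3 peaks (y axis) in the 8C and MO libraries, 1 point per library. The 8C points spread from about 3% on chromosome 9 to over 14% on chromosome 25, and the MO points stay in a narrower band.

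Lost and kept domains were also concentrated within chromosomes, and gained ones were scattered. Of 2473 windows of 1 Mb, 49.2% held no lost bin, 73.6% no kept bin and 10.4% no gained bin. The 247 windows richest in a class held 86.5% of the kept bins, 54.5% of the lost bins and 35.3% of the gained bins. Cattle autosomes are acrocentric, with the centromere at one end, and the far end stood out. In the last 2 Mb of the autosomes, 12.3% of bins were kept, 14.2% were lost and 7.11% were gained. At 2 to 10 Mb from the last position the shares were 4.35%, 10.1% and 4.89%. In the first 2 Mb the shares were 3.61%, 4.34% and 2.22%, and away from both ends, beyond 10 Mb from the last position, they were 0.472%, 3.08% and 2.12%. All 3 classes were thus densest at the last 2 Mb, and kept bins the most so, since 24.3% of them lay in these stretches, which hold 2.34% of all bins. A further 34.3% of kept bins lay 2 to 10 Mb from the last position, a zone with 9.32% of all bins. The fate of 8C bins differed by place as well: 49.2% of the bins marked in both 8C libraries were lost in the last 2 Mb, 50.8% in the first 2 Mb and 80.8% in the interior.

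The GV oocyte separates the 3 classes. In GV libraries 1 and 2, 77.8% and 78.6% of lost bins were marked, against 41.9% and 42.6% of kept bins and 5.42% and 5.03% of gained bins. Over all autosomal bins the shares were 7.75% and 7.65%. The domains lost by the morula were thus for the most part already present in the oocyte, and gained bins lay below the level of all bins. Of the gained bins, 11511 (92.7%) were marked in neither GV library, 503 (4.05%) in 1 and 397 (3.20%) in both, against 90.7%, 3.28% and 6.06% of all bins. A bin still marked in 8C could not be gained, so the share was also taken over the bins open to gain. Among bins unmarked in 8C, 5.02% of the 7914 that both GV libraries had marked were gained, against 2.63% of those that neither had marked. By this count a bin of the oocyte was gained more often than a bin elsewhere, but such bins made up a small part of the gains.

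GV status also divided the 8C domains by what became of them. Of the 18229 bins marked in both 8C and both GV libraries, 81.1% were lost and 12.8% were kept. Of the 7594 bins marked in both 8C and in neither GV library, 45.8% were lost and 42.7% were kept. Bins of 8C that were unmarked in the GV lists were thus kept more often than those shared with the oocyte. Whether such bins were newly marked after the GV stage was not tested. Of the kept bins, 3243 (55.0%) were unmarked in both GV libraries and 2330 (39.5%) were marked in both.

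At the cleavage stages before 8C, kept bins were marked more often in 4C than in 2C and GV, and gained bins stood below the level of GV. Kept bins were marked for 69.0% and 68.6% in 2C and for 90.8% and 90.6% in 4C. Lost bins were marked for 74.1% and 73.1% in 2C and for 85.9% and 89.4% in 4C. Gained bins stood at 1.46% and 1.55% in 2C and at 2.84% and 3.10% in 4C. In the α-amanitin 8A libraries, 93.1% and 93.0% of kept bins, 85.6% and 86.4% of lost bins and 5.95% and 5.50% of gained bins were marked. Of all autosomal bins, 5.24% and 5.22% were marked in 2C, 6.75% and 7.27% in 4C and 7.48% and 7.41% in 8A. The embryos grown in the inhibitor thus carried the domains of the untreated 8C embryo at most of these bins. Over the 6 libraries of GV, 2C and 4C, the lost share exceeded the gained share by 76.6 percentage points ± 6.38 (SD, n = 6), in 6 of 6 libraries. Lost bins were defined as marked and gained bins as unmarked in 8C, which fixes this direction in any stage that resembles 8C, so the value is a description and no p is given.

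After the morula, kept domains persisted, lost domains mostly stayed away and gained domains were carried on in part. In BL, 76.8% and 85.0% of kept bins, 6.26% and 10.4% of lost bins and 31.4% and 38.1% of gained bins were marked. In ICM the shares were 64% and 70.1% for kept, 2.46% and 3.92% for lost and 43.4% and 50.3% for gained bins. In TE they were 83.7% and 82.3% for kept, 13.1% and 13% for lost and 28.7% and 28.1% for gained bins. Gained bins were thus marked more often in both ICM libraries than in both TE libraries, and kept and lost bins more often in TE. Over all autosomal bins the shares were 4.05% and 5.49% in BL, 3.95% and 5.22% in ICM and 6.37% and 6.42% in TE, so the whole TE lists also marked more bins than the ICM lists. Over these 6 libraries the gained share exceeded the lost share by 28.5 percentage points ± 12.9 (SD, n = 6), in 6 of 6 libraries. The class rule likewise fixes this direction in any stage that resembles the morula, so no p is given.

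The ICM and TE difference within gained bins was set by a part of them. Of the gained bins, 2176 (17.5%) were marked in all 6 later libraries and 4967 (40%) in none, against 1.86% and 89.8% of all autosomal bins. A further 2035 (16.4%) were marked in both ICM and no TE library, against 0.846% of all autosomal bins, and 277 (2.23%) in both TE and no ICM library, against 1.98% of all bins. For kept bins the order was the opposite, with 93 (1.58%) marked in ICM alone and 708 (12%) in TE alone, and 3180 (54.0%) in all 6. Of the lost bins, 16338 (81.5%) were marked in none of the 6, and 1397 (6.97%) were marked in both TE and no ICM library. The share of lost bins marked in none was thus below that of all bins. Each difference of ICM from TE rests on 2 libraries a side and was not adjusted with the other tests, so it is given as values.

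**Figure D3:**
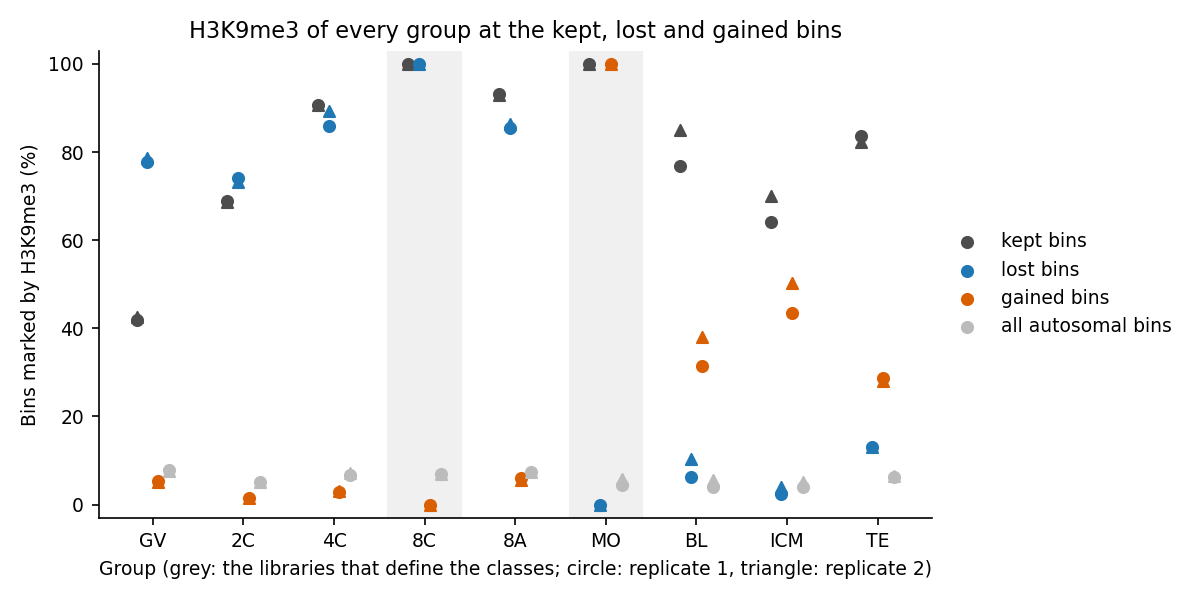
Percentage of the kept, lost, gained and all autosomal bins (y axis) marked by H3K9me3 in each library of 9 groups, in order of development, with 8A beside 8C. Grey bands are the 8C and MO libraries that define the classes, where the values are 0% or 100% by definition. Lost bins stand high up to 8A and low from MO on. Gained bins stand low up to 8A and between 28.1% and 50.3% in the BL, ICM and TE libraries.

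H3K27me3 was lower in the morula at the lost bins and higher at part of the gained ones. H3K27me3 peaks covered 69.4% and 71.2% of the bases of lost bins in 8C and 6.78% and 6.13% in MO. In gained bins the cover was 4.58% and 4.40% in 8C and 35.4% and 32.7% in MO. In kept bins it was 84.8% and 86.5% in 8C and 69.0% and 66.0% in MO. Over all bins the cover stayed near 5.50% and 5.61% in 8C and 6.56% and 6.01% in MO, so the whole lists differed far less than the lost and gained bins. In each of the 3 classes the 2 groups did not overlap (exact permutation p = 0.333).

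Counted by the same bin rule, 11907 lost bins (59.4%) also lost H3K27me3, against 3.13% of all autosomal bins. They make up 76.4% of the 15588 bins that lost H3K27me3 anywhere. Of the gained bins, 3230 (26.0%) also gained H3K27me3, against 3.84% of all bins, and they make up 16.9% of the 19126 bins that gained it. Of the kept bins, 3409 (57.8%) also kept H3K27me3, against 1.14% of all bins, and these are 59.8% of the bins that kept it. A larger part of the losses than of the gains was thus shared with H3K27me3. Leaving out 8C replicate 1 put the share of lost bins that also lost H3K27me3 at 48.7%, and leaving out 8C replicate 2 put it at 49.2%. The stages differed accordingly in how far the marks coincided. In 8C, 19697 bins were marked by both antibodies in both libraries, which are 70.2% of the H3K9me3 bins and 87.7% of the H3K27me3 bins. In MO there were 8463 such bins, or 42.8% and 31.4%.

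H3K27me3 at the 8-cell stage also went along with the fate of H3K9me3. Of the 19697 bins with both marks in both 8C libraries, 25.6% kept H3K9me3 and 65.9% lost it. Of the 3352 with H3K9me3 in both and H3K27me3 in neither, 7.79% kept it and 88.3% lost it. Most bins of either kind lost the mark, and the doubly marked ones were kept more often.

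H3K27ac was higher in the morula where H3K9me3 was lost. Its peaks covered 1.69% and 1.34% of lost bins in 8C and 13.4% and 11% in MO, against 3.64% and 3.61% and then 4.63% and 4.53% over all bins. Lost bins thus went from below the level of all bins to above it, with no overlap of the groups (exact permutation p = 0.333). A bin touched by H3K27ac in both libraries was seen at 3.95% of lost bins in 8C and 30.0% in MO, against 10.1% and 14.1% of all bins. By the 50% rule, 1336 lost bins (6.67%) gained H3K27ac, against 1.64% of all bins. The H3K27ac cover at lost bins was close with and without H3K27me3 at the earlier stage: 14.1% and 11.4% in MO at the 12976 lost bins with H3K27me3 in both 8C libraries, and 12.8% and 11.1% at the 2960 with it in neither. In gained bins H3K27ac covered 4.69% and 4.61% in 8C and 3.48% and 3.48% in MO. That fall did not hold in all of them. In the 7413 gained bins with H3K27me3 in neither MO library, H3K27ac was 4.12% and 3.99% in 8C and 5.06% and 5.11% in MO. In the 3737 with H3K27me3 in both MO libraries, it was 5.76% and 5.65%, then 0.896% and 0.798%. Over all bins with H3K27me3 in both MO libraries it also fell, from 5.26% and 4.88% to 1.60% and 1.46%. In kept bins it covered 2.07% and 1.93%, then 1.89% and 1.7%. That last difference, -0.207 percentage points, changed its sign without MO replicate 1 (0.488) and where any covered base marked a bin (0.318), so no direction is given for it.

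H3K4me3 cover of the kept bins was above the level of all bins in the 8-cell embryo and below it in the morula. Its peaks covered 13.6% and 22.6% of kept bins in 8C and 0.668% and 0.689% in MO. Over all bins with H3K27me3 in both MO libraries, they covered 18.4% and 30.8% in 8C and 3.15% and 3.31% in MO. The high 8C cover is thus not particular to kept bins. By the 50% rule, 616 kept bins (10.5%) were marked by H3K4me3 in both 8C libraries, against 1.36% of all bins. In gained bins they covered 6.00% and 9.84% in 8C and 1.32% and 1.43% in MO. In lost bins the values were 2.64% and 4.94%, then 1.74% and 2.06%, close to those of all bins (2.76% and 4.52%, then 1.74% and 1.93%). The groups did not overlap in any class (exact permutation p = 0.333), and the 8C pair differed by more than 1.5 times within itself. By the bin rule, 600 kept bins (10.2%) and 513 gained bins (4.13%) lost H3K4me3, against 0.856% of all bins.

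**Figure D4:**
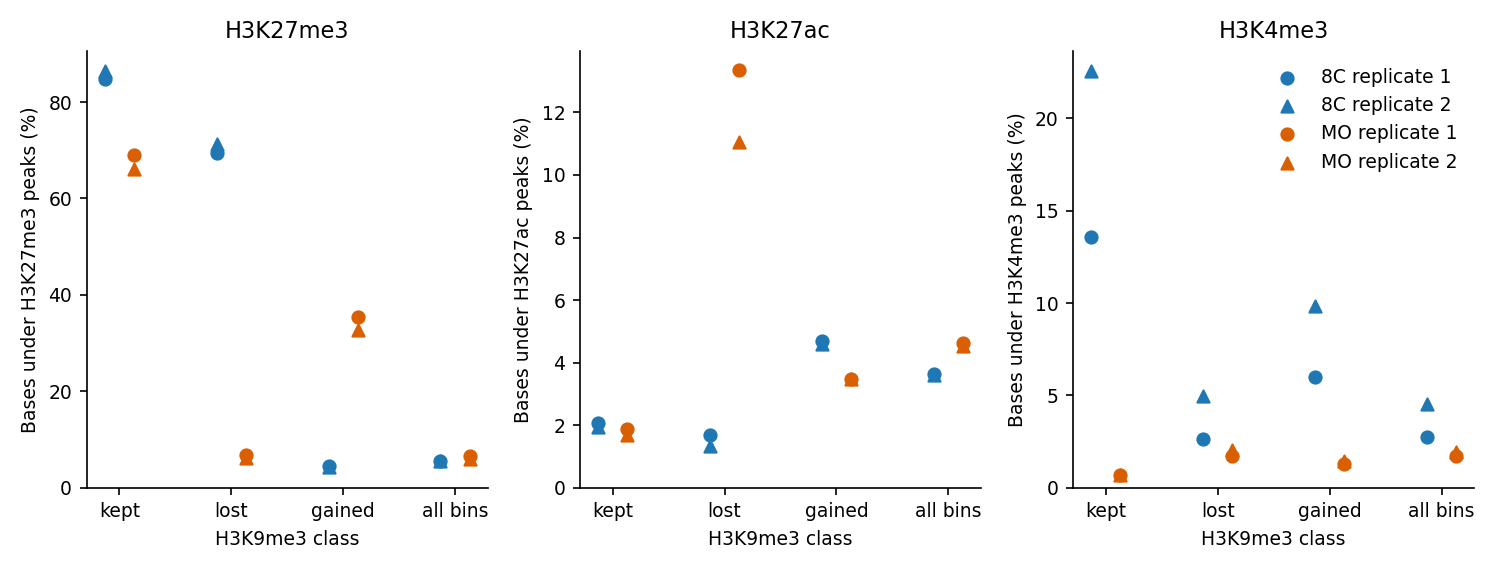
Percentage of the bases of kept, lost, gained and all autosomal bins under peaks of H3K27me3, H3K27ac and H3K4me3 (y axes, each with its own scale), 1 point per library. H3K27me3 at lost bins stands near 70% in 8C and near 6% in MO, H3K27ac at lost bins is higher in MO, and H3K4me3 at kept bins is higher in 8C.

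Splitting the classes showed 2 kinds of kept and 2 kinds of gained bins. The 3243 kept bins unmarked in both GV libraries were covered by H3K4me3 for 21.9% and 36.5% in 8C and 0.401% and 0.438% in MO, and by H3K27me3 for 88.5% and 85.8% in MO. The 2330 kept bins marked in both GV libraries had 2.86% and 4.70% H3K4me3 in 8C and 43.9% and 40.7% H3K27me3 in MO. Kept bins unmarked in GV therefore had the higher H3K4me3 cover in 8C and the higher H3K27me3 cover in the morula. Those shared with the oocyte had little H3K4me3 and less H3K27me3 in the morula. Over all bins with H3K27me3 in both MO libraries, H3K4me3 covered 18.4% and 30.8% in 8C, so a high 8C cover is not particular to kept bins. In the 3477 lost bins unmarked in both GV libraries, H3K27me3 covered 54.9% and 57.0% of the bases in 8C and 23.9% and 22.5% in MO. In the 14781 lost bins marked in both GV libraries, it covered 75.2% and 76.8% in 8C and 3.02% and 2.58% in MO. The order of the 2 sets was thus reversed between the stages.

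Among gained bins, 3737 (30.1%) were marked by H3K27me3 in both MO libraries and 7413 (59.7%) in neither. Of all autosomal bins, 26937 (5.41%) were marked by H3K27me3 in both MO libraries. The first set was covered by H3K4me3 for 17.8% and 29.2% in 8C, and the second for 0.736% and 1.17%. The 8C cover by H3K4me3 was as high, at 18.4% and 30.8%, over all bins with H3K27me3 in both MO libraries, so it is not particular to gained bins. The first set was later marked by H3K9me3 for 65.8% and 73.7% in BL, 67.9% and 72.1% in ICM and 70.2% and 69.7% in TE. The second was marked for 15.4% and 20.9% in BL, 31.7% and 40.4% in ICM and 8.57% and 7.89% in TE. Over all bins with H3K27me3 in both MO libraries, H3K9me3 marked 48.8% and 60.1% in BL, 40.2% and 48.6% in ICM and 64.7% and 64% in TE. Gained bins with H3K27me3 thus persisted alike in both blastocyst parts, whereas those without it were marked more often in ICM than in TE.

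Single regions, chosen as the 5 longest runs of each class, are examples and need not be typical of their class. The longest lost run, chr3:91850001-92025000 (175 kb), was covered by H3K9me3 for 99.5% and 100% in 8C and 0% and 0% in MO. It had 85.5% and 90.7% cover in GV, and no H3K9me3 in any BL, ICM or TE library. H3K27me3 there was 95.3% and 96.3% in 8C and 0% in MO, and H3K27ac was 0% in 8C and 13.4% and 9.09% in MO. This run thus combines an oocyte domain, the joint loss of both repressive marks and the arrival of H3K27ac. At chr2:133205001-133360000 (155 kb), H3K27ac reached 29.5% and 22.2% in MO from 0% in 8C. The runs chr3:115055001-115195000 and chr19:49755001-49895000 (140 kb each) had no H3K9me3 or H3K27me3 in MO and H3K27ac of 1.07% to 5.18%. The run chr5:116985001-117150000 (165 kb) was the exception after the morula: H3K9me3 covered 27.3% and 31.8% of it in BL and 15.5% and 17.7% in TE, with 0% in ICM.

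Some of the kept runs were covered in GV and others were not. The longest, chr29:47750001-48030000 (280 kb), was covered in GV for 97.5% and 97.1% and had H3K4me3 of at most 0.25%. H3K27me3 there was 96.9% and 95.9% in 8C and 47.7% and 35.4% in MO, and H3K9me3 later was 86.7% and 82.6% in TE and 21.1% and 16.9% in ICM. On the same chromosome, chr29:49420001-49540000 (120 kb) had H3K9me3 of 0% and 8.83% in GV and of 72.5% and 79.2% in 2C. Its H3K4me3 cover was 51.1% and 70.0% in 8C and 0% in MO, with H3K27me3 of at least 97.7% in all 4 libraries. A like pattern was seen at chr5:118380001-118495000 (115 kb), with H3K4me3 of 39.7% and 55.7% in 8C and 0% in MO, and at chr16:245001-365000 (120 kb), with 9.21% and 23.2% and then 0%. These last 3 kept runs had between 0% and 8.83% H3K9me3 in GV. The run chr6:113735001-113885000 (150 kb) was covered for 87.9% and 86.3% in GV and had H3K4me3 of at most 2.10%.

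The gained runs likewise fell into a set with H3K27me3 and a set without. At chr15:80800001-80850000 (50 kb), H3K9me3 was 0% in 8C and 92.0% and 93.2% in MO. H3K27me3 was 0% and then 96.0% and 96.8%, and H3K4me3 was 40.2% and 56.9% and then 1.60% and 3.40%. The runs chr2:121690001-121740000 and chr24:60725001-60775000 (50 kb each) had the same order of marks, with H3K4me3 of 21.0% and 46.1%, and of 34.3% and 50.9%, in 8C. All 3 stayed covered for at least 88.4% in every BL, ICM and TE library. By contrast, chr2:129020001-129070000 (50 kb) and chr5:77910001-77955000 (45 kb) had no H3K27me3 at either stage. At the former, H3K27ac was 12.5% and 19.6% in 8C and 37.2% and 31.6% in MO, and H3K9me3 later was 74.0% and 63.2% in ICM and 4.80% and 8.80% in TE. At the latter, H3K27ac was 1.56% and 5.67% in 8C and 14.1% and 9.11% in MO. H3K9me3 there was later 62.7% and 68.9% in ICM and 14.2% and 0% in TE. H3K27ac at both of these runs was thus higher in MO, unlike over the gained bins as a whole.

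**Figure D5:**
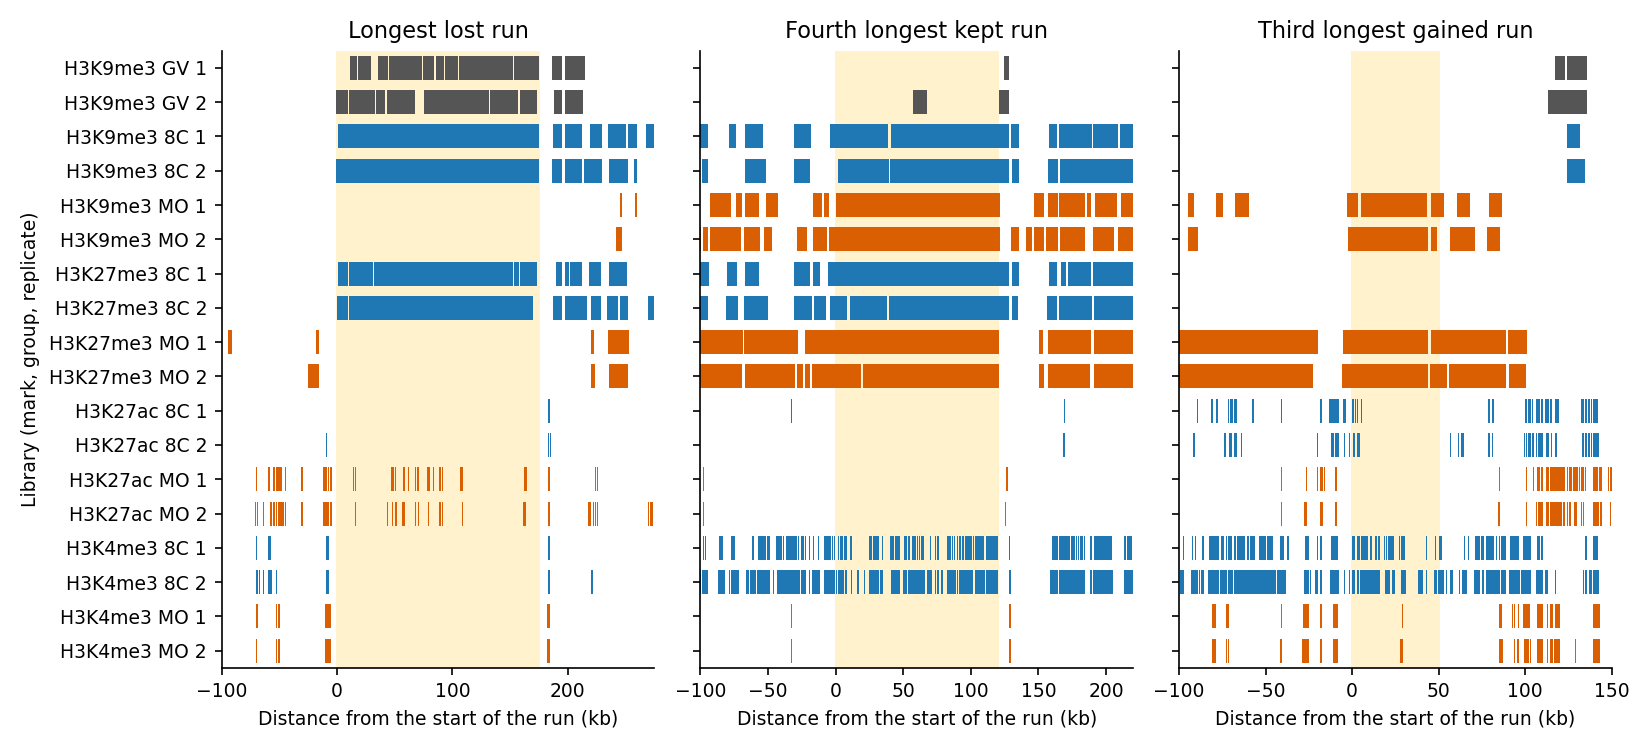
Peaks of each library (rows: mark, group and replicate) around 1 lost, 1 kept and 1 gained run, against the distance in kb from the start of the run. The shaded band is the run. Bars are peaks, blue for 8C, orange for MO and grey for GV. In the lost run both repressive marks are solid in 8C and empty in MO, in the kept run both stay while H3K4me3 disappears, and in the gained run both repressive marks appear in MO where 8C had H3K4me3.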

How the data were processed

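The authors deposited a separate list of peaks for every CUT&Tag library, without pooling replicates. SICER, SAMtools 1.9, Picard 2.26.10, BWA 0.7.9a, cutadapt 1.8.3 and Trim Galore 0.4.0 are named in the submitters' processing notes, with build ARS-UCD1.2, and the lists are named for epic2. Neither the cutoff nor a control library nor duplicate handling is given in the sources used here. Each peak carries a whole-number score by the authors whose meaning the deposited lists do not state. Peak edges lie on a grid of 200 bp for H3K9me3 and H3K27me3 and 50 bp for H3K27ac and H3K4me3, so cover is not compared between these pairs of marks. Library totals are unknown, so no counting error could be given.

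Groups and replicate numbers came from the sample titles. Bases under peaks were computed per 5 kb bin with NumPy 2.4.6 and pandas 2.3.3 in Python 3.11.15, and figures were drawn with Matplotlib 3.10.9. Chromosome ends were taken as the highest peak end in the 81 lists (2488 Mb for the 29 autosomes). Tests were exact permutations over libraries, and Benjamini-Hochberg adjustment over the 14 tests of 8C against MO left p at 0.333. The 2 sign-flip tests planned over 6 libraries each are given as descriptions. Named regions were the 5 longest runs of each class, and named autosomes the 3 with the largest and the 3 with the smallest log2 ratio. The bin sorting was tested on simulated lists. The comparison and its measures were chosen with earlier results of these data known. X and unplaced scaffolds were left out of the comparison. An annotation of ARS-UCD2.0 was not used, since its positions belong to another build.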

Additional observations from a re-analysis of the deposited data

Results flagged for a closer look

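The X chromosome and the unplaced scaffolds are outside the autosomal comparison, and both held H3K9me3 peaks. On X, 291 bins were kept, 429 were lost and 1247 were gained, which are 1.05%, 1.54% and 4.49% of X bins. The covered share of X was 3.48% and 3.61% in the 8C libraries and 7.12% and 7.88% in the MO libraries, with no overlap of the groups and in the opposite order to the autosomal total. The difference between X and the autosomes was not tested. Peaks on scaffolds covered 10.9 Mb and 12.1 Mb in the 8C libraries and 16.5 Mb and 16.2 Mb in the MO libraries. These lengths are 5.92%, 6.56%, 11.7% and 9.48% of the whole list length.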

How the results depend on the processing

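For 21 results, 84 values were computed with 1 library left out and 152 under other settings, and 1 of each changed its direction. No p of 8C against MO could pass the threshold under any setting, so stability is read from directions and sizes. With 1 library left out, the log2 ratio of covered length ranged from -0.56 to -0.23 and the difference in broad share from -24.7 to -11.9 percentage points, the smaller sizes without MO replicate 1. The difference in broad share was -6.48 points in the higher-scoring 50% of peaks and -31.0 with a 10 kb limit. With 1 library left out, the gained share ranged from 2.60% to 3.81% of autosomal bins, the highest without MO replicate 1, and H3K27ac at kept bins (MO minus 8C, main value -0.207 percentage points) ranged from -0.274 to 0.488, the latter without MO replicate 1. Where any covered base marked a bin, kept bins were 1.83% and gained bins 4.69%, and H3K27ac at kept bins was 0.318 percentage points. Where 90% cover was required, kept, lost and gained bins were 0.558%, 2.64% and 0.922%. These follow from the looser or stricter rule for a marked bin, except the sign of the H3K27ac difference, where the cause was not tested. With X and scaffolds included, the log2 ratio of covered length was -0.25. Lists trimmed to one covered length give no value for covered length itself.

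The labels number replicates 1 and 2 in both groups. Deviations of same-numbered libraries had r = -0.0117 over 61981 bins, and with 2 pairs the numbers are not taken to pair the samples. With the replicate number as a block, covered length kept a log2 ratio of -0.39 with an exact p = 0.5, the smallest that 2 pairs can give; median width, half-length width and the share in broad peaks likewise kept -0.85, -0.90 and -18.3 percentage points. Depth is unknown and limits every statement on extent: a difference in covered length between lists cannot be told apart from a difference in depth.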

Other observations

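The score per 200 bp of the peak over a bin, read within each library, was higher over kept bins than over the others. Its median was 5.45 at kept and 4.64 at lost bins in 8C replicate 1, and 5.46 and 5.03 in 8C replicate 2. In MO replicate 1 it was 5.03 at kept and 4.95 at gained bins, and in MO replicate 2 it was 7.11 and 6.31. The order was the same in all 4 libraries, and the meaning of the score is not known.

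Of the kept bins, 3863 (65.6%) were marked by H3K27me3 in both MO libraries, against 5.41% of all autosomal bins, and 1471 (25.0%) in neither. The first set was marked by H3K9me3 in both GV libraries at 22.6% of its bins, and the second at 75.0%. Of the kept bins, 1174 (19.9%) lost H3K27me3 between 8C and MO while H3K9me3 stayed, against 3.13% of all autosomal bins. Far more kept bins than bins elsewhere had H3K27me3 to lose. Of 5034 kept bins with it in both 8C libraries, 1174 lost it, against 15588 of 22472 such bins over all autosomes. By that count kept bins lost H3K27me3 less often. Over the 1 Mb windows, 828 held more lost than gained bins and 1452 more gained than lost, and the counts of both classes had r = 0.0596 over 2473 windows, a description with no p, since windows of the same libraries are not replicates.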
